A study of Mus musculus with 2 samples.

Results

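Plekhn1, AW011738 and 6 genes named with them on distal mouse chromosome 4 (Agrn, Klhl17, Noc2l, Sdf4, Ube2j2 and Ssu72) were followed through the blood cells of WT and APP/PS1 mice. The 8 genes were chosen by position and by differences already seen between these libraries, so their levels and ratios describe the data and none is tested. Of the 8 genes, 7 had a row among the 32285 genes of the count tables, and Klhl17 had none. The data were 2 single-cell RNA-seq libraries, 1 of WT and 1 of APP/PS1 blood, each made from pooled female mice (3 animals at 7 months of age) after neutrophils had been enriched by removing other cells. APP/PS1 mice carry human transgenes with mutations, deposit amyloid in the brain and serve as a model of Alzheimer's disease (AD), and neither group was treated. The only mice without transgenes that the study lists are C57BL/6J mice, which were purchased, as were the APP/PS1 mice. The promoter that drives the transgenes and the background strain of the APP/PS1 mice are not given in the sources used here. With 1 library per genotype there was no replicate error, so no p-value is given, and intervals (95%, exact) cover counting error only. Genotype, strain background, animals and library preparation cannot be told apart.

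The genes have varied roles. Plekhn1 encodes a protein with pleckstrin homology domains, which often bind membrane phosphoinositides, and AW011738 is a transcript with no settled function. Agrn encodes agrin, an extracellular proteoglycan best known for clustering acetylcholine receptors at the neuromuscular junction. Klhl17 encodes a Kelch protein of the kind that brings substrates to cullin 3 ubiquitin ligases. Noc2l encodes a nucleolar protein of ribosome assembly that also binds histones. Sdf4 encodes a calcium-binding protein of the Golgi, Ube2j2 a ubiquitin-conjugating enzyme anchored in the endoplasmic reticulum, and Ssu72 a phosphatase of the RNA polymerase II tail. Neutrophils are short-lived, RNA-poor cells that carry preformed granules, so few transcripts per gene are counted in each cell.

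In mm10 (GRCm38, GENCODE M21), Plekhn1 was annotated on the minus strand at chr4:156221456-156234857. AW011738 lay on the plus strand at chr4:156203304-156205151, with its start 31.6 kb from the annotated Plekhn1 start. Agrn lay on the minus strand at chr4:156165290-156197488, with its start 37.4 kb away. Noc2l lay on the plus strand at chr4:156236010-156247616, and its start was 1.15 kb from that of Plekhn1. Farther towards the centromere were Sdf4 (chr4:155992872-156013610), Ube2j2 (chr4:155943831-155959604) and Ssu72 (chr4:155704800-155733879), all on the plus strand. Klhl17 has no gene of its own in GENCODE M21. The 5 transcripts that GENCODE M21 lists under Plekhn1 include one at chr4:156229044-156234857 on the minus strand, which has the same start and end as Klhl17 in RefSeq. The other 4 Plekhn1 transcripts end their 5′ side at 156229717 or before. Distances from Plekhn1, here and below, are from the start of the transcript with the Klhl17 span, 156234857. The Plekhn1 promoter printed below is instead at its RefSeq start, 156228542. From that start Noc2l would lie farther away, and the genes towards the centromere closer. Where the authors' annotation joins the genes in this way, UMIs of Klhl17 were counted as Plekhn1 and cannot be told apart, so every Plekhn1 value here may hold both. The annotation release behind the authors' counts is not given in the sources used here.

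The promoters of the genes that stood higher together in the APP/PS1 library, with that of Klhl17, are printed below to show the letters at the starts of these genes. No link between these sequences and the ratios was tested. Each holds 250 bases before the RefSeq start and 30 from it, 5′ to 3′ (GRCm38.p6). Capitals mark matches on either strand to the GC box (GGGCGG) and the CCAAT box (CCAAT), and matches to the GC box may overlap each other. The windows are chr4:156228513-156228792 for Plekhn1, chr4:156234828-156235107 for Klhl17, chr4:156203034-156203313 for AW011738 and chr4:156197459-156197738 for Agrn, on the minus strand except for AW011738.
Plekhn1: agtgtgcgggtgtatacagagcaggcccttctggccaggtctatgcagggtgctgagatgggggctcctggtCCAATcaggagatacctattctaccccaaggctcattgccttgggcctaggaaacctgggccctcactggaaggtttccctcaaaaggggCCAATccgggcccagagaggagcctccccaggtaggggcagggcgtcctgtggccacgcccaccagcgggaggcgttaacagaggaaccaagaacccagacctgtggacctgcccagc
Klhl17: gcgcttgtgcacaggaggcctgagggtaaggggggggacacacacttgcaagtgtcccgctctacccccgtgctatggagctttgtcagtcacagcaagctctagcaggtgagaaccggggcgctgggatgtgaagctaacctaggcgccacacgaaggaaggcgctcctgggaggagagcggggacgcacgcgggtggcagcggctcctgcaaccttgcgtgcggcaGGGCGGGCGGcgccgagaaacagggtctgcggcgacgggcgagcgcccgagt
AW011738: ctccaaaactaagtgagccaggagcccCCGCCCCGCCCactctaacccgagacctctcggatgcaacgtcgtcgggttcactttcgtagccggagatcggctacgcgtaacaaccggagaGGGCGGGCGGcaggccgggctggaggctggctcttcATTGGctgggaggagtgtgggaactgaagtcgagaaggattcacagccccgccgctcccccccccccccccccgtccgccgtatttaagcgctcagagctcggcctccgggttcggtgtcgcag
Agrn: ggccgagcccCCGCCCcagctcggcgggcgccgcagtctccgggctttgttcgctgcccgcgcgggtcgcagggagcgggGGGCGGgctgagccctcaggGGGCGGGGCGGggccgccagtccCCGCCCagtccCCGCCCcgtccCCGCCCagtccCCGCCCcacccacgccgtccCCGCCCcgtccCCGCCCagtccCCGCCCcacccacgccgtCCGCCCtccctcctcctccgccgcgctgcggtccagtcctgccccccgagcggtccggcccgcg
The GC box matched 0 times for Plekhn1, 2 times for Klhl17, 4 times for AW011738 and 12 times for Agrn, and 34.7% of 32851 mouse promoters of this length held at least 1 match. The CCAAT box matched 2 times for Plekhn1 and 1 time for AW011738, and 36.1% of all promoters held it. The GC content was 61.8% for Plekhn1, 67.1% for Klhl17, 66.1% for AW011738 and 83.6% for Agrn, beside a median of 52.5% over all promoters. No TATA box (TATAAA, in 13.1% of promoters), interferon-stimulated response element core (3.28%), C/EBP (TTNCNNAA, 39.3%), AP-1 (TGANTCA, 7.46%) or GAS (TTCNNNGAA, 7.83%) letters were found in these 4 windows. The PU.1 core (GAGGAA, in 26.0% of promoters) matched 1 time for Plekhn1. A match is a description of letters and not of binding.

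The deposited tables held 17123 WT and 17645 APP/PS1 cells with 92458623 and 84870864 unique molecular identifiers (UMIs), and 83 barcodes occurred in both. After the filters of the study, 14564 WT and 15208 APP/PS1 cells were kept, of which 242 and 313 were in unnamed clusters or platelet clusters and were not used. Clusters were named by markers, which gave 8 cell types: neutrophils (5750 WT and 6784 APP/PS1 cells), neutrophils with platelet transcripts (1831 and 2804), monocytes (5295 and 3540), NK cells (425 and 762), T cells (386 and 514), B cells (303 and 307), basophils (72 and 43) and erythroid cells (260 and 141). Although the label of both samples is neutrophil, the other cell types were present in both. Median depth was 2516.5 and 2629 UMIs per neutrophil and 6317 and 6320 UMIs per monocyte. The 9 neutrophil markers were all detected in neutrophils, where they summed to 186749 CPM (counts per 1000000 UMIs of the cell type) in WT and to 158694 CPM in the APP/PS1 library.

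Plekhn1 differed most among the 7 genes in neutrophils. In the WT library 182 UMIs gave 11.2 CPM (9.61 to 12.9), and in the APP/PS1 library 784 UMIs gave 38.5 CPM (35.9 to 41.3). The intervals were far apart, and the APP/PS1 level was 3.45 times that of WT (2.93 to 4.07), a log2 ratio of 1.79 (1.55 to 2.03). It was the 8th highest log2 ratio among 8860 genes with at least 50 UMIs over both libraries. In neutrophils with platelet transcripts, the WT level of Plekhn1 was 10.4 CPM (7.88 to 13.5) and the APP/PS1 level 33.8 CPM (30.1 to 37.8), a log2 ratio of 1.70 (1.29 to 2.13). Within each library the Plekhn1 intervals of the neutrophil populations overlapped.

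AW011738 was higher in the same cells. Neutrophils held 1134 UMIs in WT, or 69.6 CPM (65.6 to 73.8), and 3036 UMIs in APP/PS1, or 149 CPM (144 to 155). The ratio was 2.14 (2.001 to 2.30), a log2 ratio of 1.10 (1.001 to 1.20), the 44th highest in neutrophils. In neutrophils with platelet transcripts AW011738 stood at 58.1 CPM (WT) and 134 CPM (APP/PS1), a log2 ratio of 1.20 (1.02 to 1.39).

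Agrn, counted at a low level in neutrophils, was higher as well. It had 164 UMIs in WT (10.1 CPM, 8.59 to 11.7) and 402 UMIs in APP/PS1 (19.8 CPM, 17.9 to 21.8), a log2 ratio of 0.97 (0.71 to 1.24). In neutrophils with platelet transcripts its levels were 8.03 CPM (WT) and 18.1 CPM (APP/PS1), a log2 ratio of 1.17 (0.69 to 1.69). The dystroglycan gene Dag1, whose product binds agrin, was the one gene of 5 agrin partners with enough UMIs in neutrophils. It had 32 UMIs in WT and 67 in APP/PS1, a log2 ratio of 0.74 (0.12 to 1.40), and 6.7% of all genes were higher past 0.5 log2. In monocytes Dag1 had 359 and 256 UMIs and no detectable difference (log2 ratio 0.15, -0.09 to 0.39).

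The other 4 counted genes did not share this direction to the same degree. Noc2l was nearly undetected in neutrophils, with 39 UMIs in WT (2.39 CPM, 1.70 to 3.27) and 21 in APP/PS1 (1.03 CPM, 0.64 to 1.58), a log2 ratio of -1.21 (-2.05 to -0.41). No neutrophil held more than 1 Noc2l UMI. In neutrophils with platelet transcripts Noc2l had 8 UMIs in WT and 16 in APP/PS1, and its interval held no difference (log2 ratio 0.27, -1.04 to 1.70). Ube2j2 was lower, from 48.2 CPM (44.9 to 51.7) among WT to 38.1 CPM (35.5 to 40.9) among APP/PS1 cells, a log2 ratio of -0.34 (-0.48 to -0.19). Sdf4 was at 82.7 CPM (78.3 to 87.2) and 91.4 CPM (87.3 to 95.6), a log2 ratio of 0.14 (0.04 to 0.25). Ssu72 was at 284 CPM (276 to 292) and 316 CPM (308 to 324), a log2 ratio of 0.16 (0.10 to 0.21). The last 2 ratios were close to the median over all genes in neutrophils, 0.06.

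Past a log2 ratio of 0.5 in neutrophils, 3 of the 7 genes were higher (Plekhn1, AW011738 and Agrn), 1 was lower (Noc2l) and 3 lay within. Of all 8860 genes, 6.7% were higher and 4.39% were lower by this amount. The members were chosen with such ratios known, so nothing is read from their share. Of the 7 genes, 2 passed a log2 ratio of 1 upwards (Plekhn1 and AW011738), beside 0.666% of all genes. In neutrophils with platelet transcripts 3 of 6 genes with enough UMIs were higher and none lower, beside 5.27% and 4.69% of 7395 genes.

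**Figure D1:**
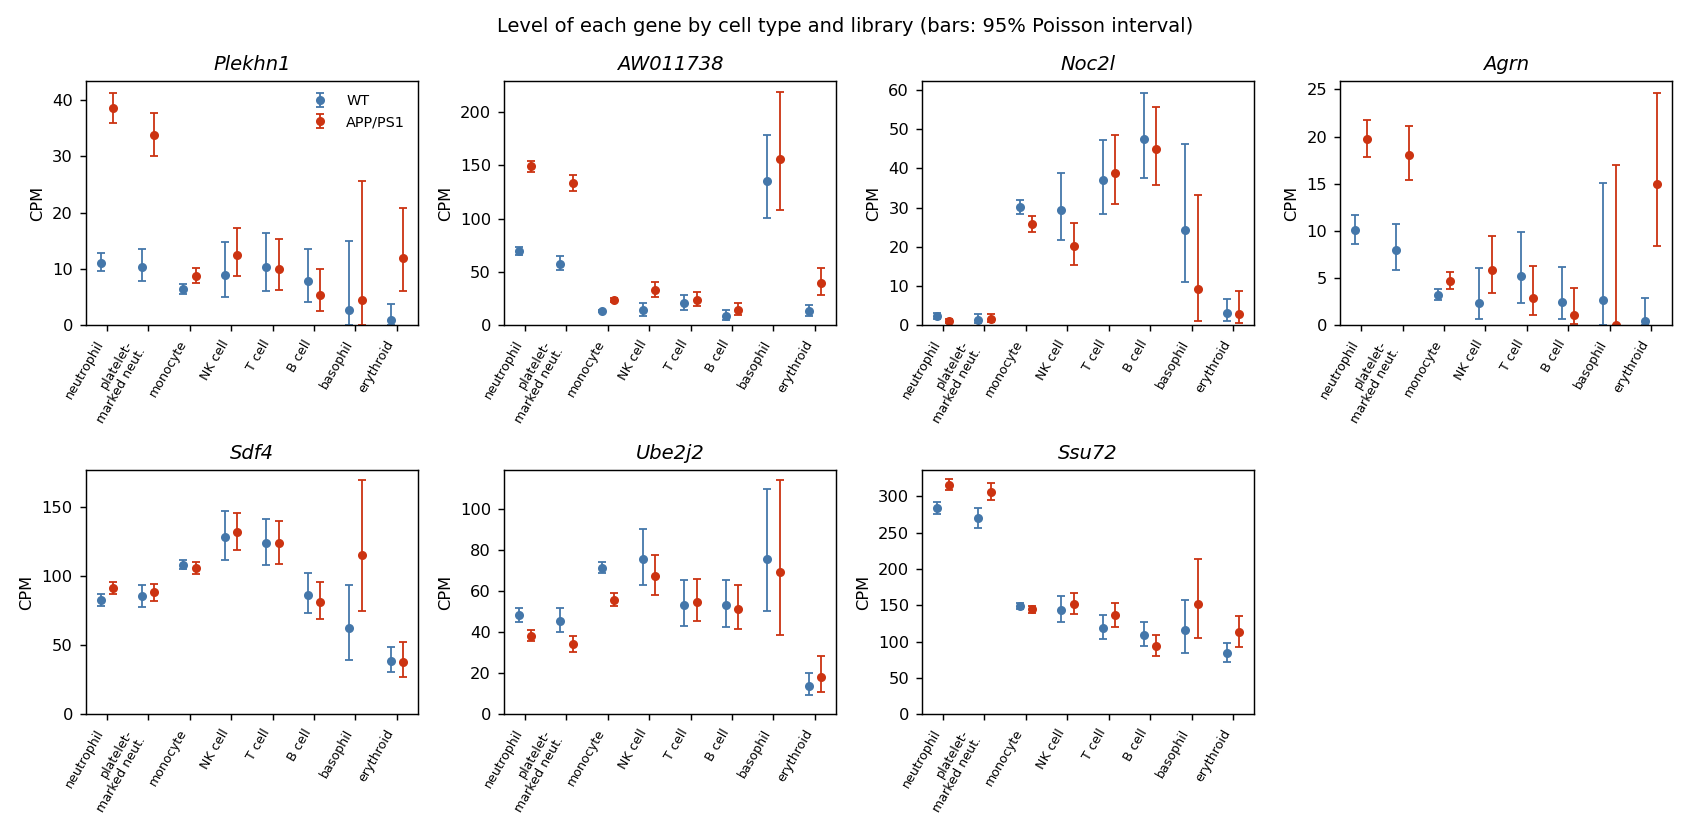
Level of each counted gene in CPM (linear axis from 0) in 8 cell types, WT in blue and APP/PS1 in red, with points for the summed UMIs of 1 library and bars for 95% Poisson intervals. In neutrophils Plekhn1 goes from 11.2 to 38.5 CPM and AW011738 from 69.6 to 149 CPM, and the bars of the libraries do not touch.

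Outside neutrophils the order of the levels differed between the genes. In WT, Plekhn1 ranged from 11.2 down to 6.47 CPM over neutrophils, neutrophils with platelet transcripts, T cells, NK cells, B cells and monocytes, in that order, and neighbours in this order had overlapping intervals. WT basophils (1 UMI) and erythroid cells (2 UMIs) were below these. In APP/PS1, the 2 neutrophil populations stood apart from all other types, which ranged from 4.598 CPM in basophils (1 UMI) to 12.5 CPM in NK cells (8.75 to 17.3). AW011738 was highest in basophils in both libraries, with 135 CPM (100.4 to 178) for WT and 156 CPM (108 to 218) for APP/PS1. The WT basophil level stood above that of WT neutrophils, while in APP/PS1 the basophil and neutrophil intervals overlapped. Noc2l stood high in lymphocytes and monocytes and low in neutrophils, with 47.5 CPM (37.6 to 59.3) in WT B cells, 37.0 CPM (28.5 to 47.2) in T cells, 30.2 CPM (28.4 to 32.1) in monocytes and 2.39 CPM in neutrophils.

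In monocytes, AW011738 went from 13.5 CPM (12.3 to 14.8) for WT to 24.0 CPM (22.0 to 26.1) for APP/PS1, a log2 ratio of 0.83 (0.65 to 1.02). With called doublets removed, 619 of its 997 UMIs over both libraries were left, and the log2 ratio was 0.90. For Sdf4, 5074 of 6066 UMIs were left. The part of doublets in the monocyte level of AW011738 was not tested. Agrn was at 3.25 CPM (2.67 to 3.91) and 4.69 CPM (3.84 to 5.69), a log2 ratio of 0.53 (0.13 to 0.93). Plekhn1 was at 6.47 CPM (5.64 to 7.37) and 8.80 CPM (7.61 to 10.1), a log2 ratio of 0.45 (0.16 to 0.73). This smaller ratio depended on which cells were called monocytes: it was 0.08 with the mitochondrial limit as the one filter on cells and 0.13 when each cell was typed by its own marker means. Ube2j2 was lower in monocytes, at 71.3 CPM (68.5 to 74.2) and 55.6 CPM (52.5 to 58.8), a log2 ratio of -0.36 (-0.46 to -0.26). Noc2l was at 30.2 and 25.8 CPM (23.7 to 28.0), a log2 ratio of -0.23 (-0.38 to -0.08). Past 0.5 log2, 2 of the 7 genes were higher in monocytes (AW011738 and Agrn) and none was lower, beside 3.14% and 3.85% of 11092 genes. Agrn in monocytes no longer passed 0.5 log2 with called doublets removed (0.25), with typing by marker means (0.31), at a resolution of 0.5 (0.40) or with the mitochondrial limit alone (0.49).

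AW011738 in NK cells went from 14.4 CPM (9.22 to 21.4) for WT to 33.0 CPM (26.7 to 40.3) for APP/PS1, a log2 ratio of 1.20 (0.54 to 1.91), and was the one gene there whose interval lay above no difference. This log2 ratio was 0.69 with called doublets removed, which left 61 of 119 UMIs over both libraries. It was 0.67 with the mitochondrial limit as the one filter and 0.57 when each cell was typed by its own marker means. In T cells, Plekhn1 was at 10.4 CPM (6.16 to 16.4) and 10.1 CPM (6.25 to 15.4), and AW011738 at 20.8 CPM (14.6 to 28.8) and 24.0 CPM (17.8 to 31.7). In B cells, Plekhn1 was at 7.92 CPM (4.22 to 13.5) and 5.47 CPM (2.62 to 10.1). For Plekhn1 the log2 ratio was -0.04 (-1.02 to 0.95) in T cells and -0.54 (-1.88 to 0.77) in B cells, so neither a difference nor its absence was detectable at this depth. None of the 5 genes with enough UMIs in T cells and none of the 4 in B cells passed 0.5 log2. Of all genes, 12.3% and 14.5% did so either way. Plekhn1 and Agrn had too few UMIs to be counted in T cells, and Plekhn1, AW011738 and Agrn too few in B cells. AW011738 had 14 UMIs in WT and 27 in APP/PS1 B cells, a log2 ratio of 0.79 (-0.19 to 1.84). In NK cells AW011738 was higher by this amount and Noc2l lower (log2 ratio -0.55, -1.12 to 0.03), of 6 genes, beside 6.03% and 3.84% of all genes.

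**Figure D2:**
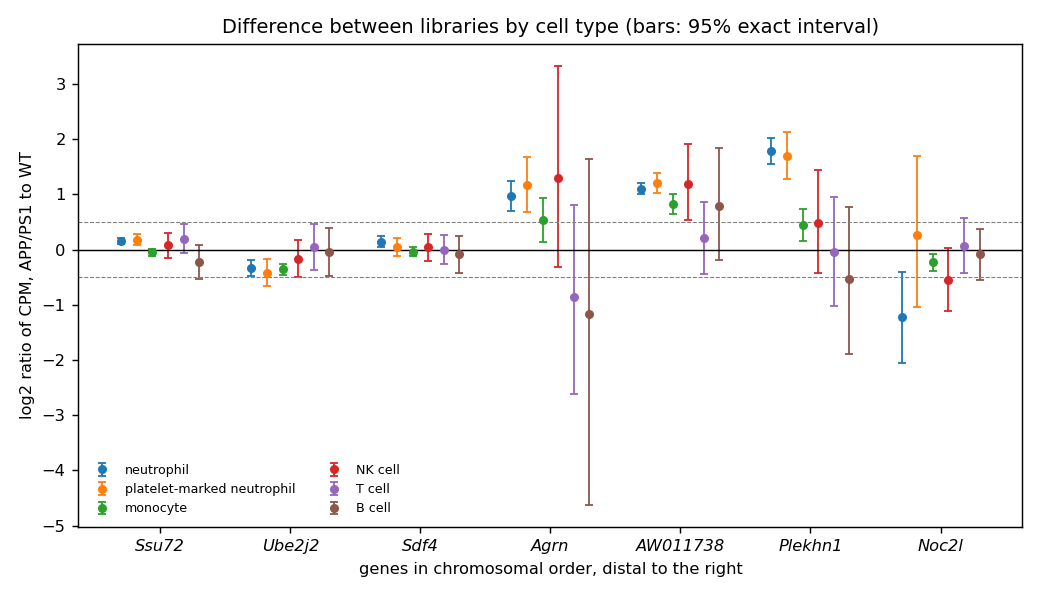
Log2 ratio of CPM, APP/PS1 to WT, for the 7 counted genes in chromosomal order, in 6 cell types by colour, with 95% exact intervals and dashed lines at 0.5 and -0.5. Agrn, AW011738 and Plekhn1 lie above 0 in both neutrophil populations and in monocytes, while Ube2j2 lies below 0 in these 3 and Sdf4 and Ssu72 stay near 0.

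Erythroid cells and basophils had few UMIs of these genes. In erythroid cells, Plekhn1 had 2 UMIs in WT and 12 in APP/PS1 (ratio 11.6, 2.58 to 107), Agrn 1 and 15 (ratio 29.0, 4.46 to 1221), and AW011738 26 and 40 (ratio 2.98, 1.77 to 5.08). The neutrophil marker S100a9 in the same erythroid cells stood at 18.1% of its neutrophil level in WT and at 26.2% in APP/PS1. At those shares of the neutrophil levels, AW011738 would be at 12.6 and 39.1 CPM, beside 13.4 and 39.9 CPM measured, and Plekhn1 at 2.03 and 10.1 CPM, beside 1.03 and 11.96 CPM measured. Agrn would be at 1.83 and 5.18 CPM, beside 0.52 and 14.9 CPM measured. In monocytes S100a9 was at 7.78% and 7.33% of its neutrophil level. At those shares Plekhn1 would be at 0.87 and 2.82 CPM, beside 6.47 and 8.80 CPM measured. AW011738 would be at 5.42 and 10.9 CPM, beside 13.5 and 24.0 CPM measured. In NK cells the share was 10.4% and 11.1%, at which AW011738 would be at 7.22 and 16.5 CPM, beside 14.4 and 33.0 CPM measured. Each of these levels at the S100a9 share was higher in APP/PS1 than in WT. The part of free neutrophil RNA in the levels and in the ratios was not tested. The median log2 ratio over all genes was 0.20 in erythroid cells, and past 0.5 log2 AW011738 was the one gene higher of 3 with enough UMIs, beside 21.2% of all genes.

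All kept cells were also clustered more finely, at a resolution of 0.5, which gave 5 neutrophil groups, named here by their leading genes. They are given apart since the libraries did not hold the groups in the same numbers. Together they do not hold exactly the same cells as the neutrophils above. The group led by Cstdc4, Wfdc21 and Cxcl2 had 2914 WT and 1899 APP/PS1 cells, that led by Il1b, Csf1 and Csf3r 2174 and 3311, that led by the interferon genes Ifit3, Ifit3b and Ifit1 873 and 1694, and that led by the granule genes Camp, Ngp and Ltf 88 and 175. The neutrophils with platelet transcripts numbered 1530 and 2508 at this resolution. Plekhn1 was higher in APP/PS1 in each of the 5 groups, with intervals above no difference. It went from 7.83 CPM (6.07 to 9.94) to 41.3 CPM (36.3 to 46.9) in the Cstdc4-led group, a log2 ratio of 2.40 (2.004 to 2.81). In the Il1b-led group it went from 13.5 CPM (10.6 to 17.1) to 38.6 CPM (34.6 to 42.9), a log2 ratio of 1.51 (1.14 to 1.90). In the Ifit3-led group it went from 15.1 CPM (10.9 to 20.4) to 34.1 CPM (29.4 to 39.3), a log2 ratio of 1.17 (0.69 to 1.68). In the Camp-led group, the immature one, 6 UMIs in WT and 47 in APP/PS1 gave 10.4 CPM (3.82 to 22.6) and 39.8 CPM (29.3 to 53.0). The APP/PS1 levels thus spanned a narrow range, 34.0 to 41.3 CPM, over the 5 groups.

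The level of AW011738 varied more between the groups. In APP/PS1 it ranged from 22.0 CPM (14.4 to 32.3) in the Camp-led group and 93.7 CPM (86.0 to 102) in the Cstdc4-led group to 160 CPM (152 to 168) in the Il1b-led and 217 CPM (205 to 230) in the Ifit3-led group. WT had the same order, from 8.67 CPM (2.81 to 20.2) and 49.0 CPM (44.4 to 53.9) to 84.3 CPM (76.6 to 92.4) and 120 CPM (107 to 133). The log2 ratio was 0.94 (0.75 to 1.12) in the Cstdc4-led, 0.92 (0.77 to 1.08) in the Il1b-led, 0.86 (0.69 to 1.04) in the Ifit3-led and 1.35 (-0.06 to 3.08) in the Camp-led group. In the neutrophils with platelet transcripts it was 1.29 (1.09 to 1.501), with 53.5 CPM (47.0 to 60.8) in WT and 131 CPM (123 to 139) in APP/PS1 cells. Without those with platelet transcripts, the neutrophils of this resolution had an AW011738 log2 ratio of 1.09. The log2 ratios of the Cstdc4-led, Il1b-led and Ifit3-led groups lay below it, and that of the Camp-led group above it. Since the libraries held the groups in different numbers, their mix enters the AW011738 value over all neutrophils. Its part was not tested. Agrn had log2 ratios of 1.02 (0.58 to 1.47), 0.91 (0.48 to 1.37) and 0.78 (0.26 to 1.33) in the Cstdc4-led, Il1b-led and Ifit3-led groups, and 3 and 7 UMIs in the Camp-led group. Ube2j2 had log2 ratios of -0.51 (-0.78 to -0.26), -0.33 (-0.56 to -0.10) and -0.32 (-0.64 to 0.01) in the same 3 groups.

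**Figure D3:**
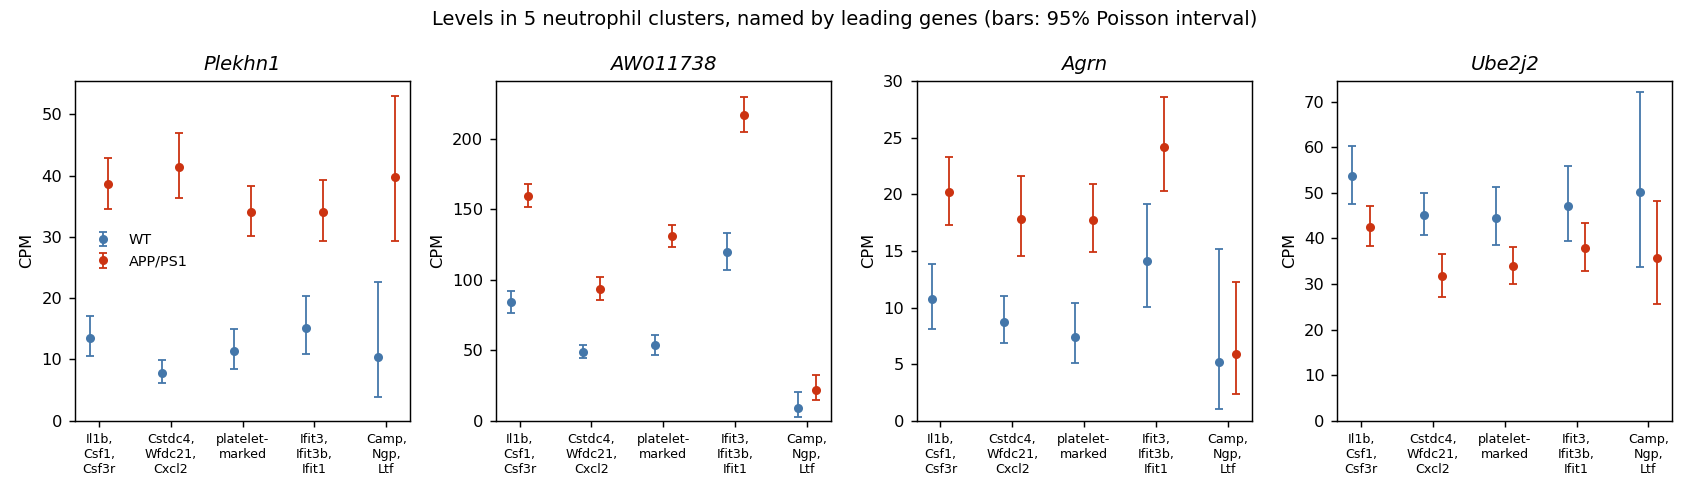
Level in CPM (linear axes from 0) of 4 genes in 5 neutrophil groups named by their leading genes, WT in blue and APP/PS1 in red, with 95% Poisson intervals. Plekhn1 lies between 34.0 and 41.3 CPM in every APP/PS1 group, while AW011738 climbs from 22.0 CPM in the Camp-led to 217 CPM in the Ifit3-led group.

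The share of cells with a UMI also differed between the libraries. Among neutrophils 3.01% of WT cells (2.58 to 3.48, Clopper-Pearson) and 9.86% of APP/PS1 cells (9.16 to 10.6) had a Plekhn1 UMI. Of the cells with a UMI, 165 of 173 in WT and 570 of 669 in APP/PS1 had exactly 1, and the highest count in a cell was 3 and 4. In APP/PS1, 84 cells had 2 and 15 had 3 or more, beside 7 and 1 in WT. With so few UMIs per cell, such counts do not show how evenly the RNA was spread over cells, which was not tested. With each cell thinned to 1000 UMIs, which left out 2 APP/PS1 cells, the shares were 1.27% (0.996 to 1.59) and 3.54% (3.11 to 4.01). In B cells, whose depth was higher (medians of 5001 and 5875 UMIs), 3.30% and 3.26% had a Plekhn1 UMI, and 0.33% and 0.33% after thinning. Each thinned B cell share was 1 cell, of 303 in WT (0.008 to 1.83) and of 307 in APP/PS1 (0.008 to 1.80). After thinning the WT and APP/PS1 shares were 1.30% (0.42 to 2.997) and 1.17% (0.43 to 2.52) in T cells. They were 1.18% (0.38 to 2.72) and 0.92% (0.37 to 1.89) in NK cells, and 0.77% (0.56 to 1.05) and 0.93% (0.64 to 1.31) in monocytes. The unthinned WT neutrophil share was thus not above that of B cells, and expression cannot be read from it alone. AW011738 had a UMI in 15.9% of WT neutrophils (14.96 to 16.9) and 30.4% of APP/PS1 neutrophils (29.3 to 31.5), and in 4.29% and 6.51% of B cells. After thinning the neutrophil shares were 6.68% (6.05 to 7.35) and 13.6% (12.8 to 14.4). Agrn had a UMI in 2.66% (2.26 to 3.11) and 5.53% (4.996 to 6.10) of neutrophils and in 1.32% and 0.65% of B cells.

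Plekhn1 UMIs were about as frequent in neutrophils with an AW011738 UMI as in those without. Among thinned APP/PS1 neutrophils, 3.14% (2.11 to 4.48) of the 923 cells with an AW011738 UMI also had a Plekhn1 UMI, beside 3.60% (3.14 to 4.11) of the 5859 cells without one. In WT the shares were 1.30% (0.42 to 3.01) of 384 cells and 1.27% (0.99 to 1.60) of 5366 cells. With about 1 UMI per positive cell, an association within cells would have to be large to be detected.

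The members were next set among all genes near them. Of 56 annotated genes starting within 1 Mb of the Plekhn1 start, 26 had at least 50 UMIs in neutrophils, 30 had fewer and 10 of those had none. Past 0.5 log2, 5 of the 26 were higher and 1 was lower, 23.1% of those with enough UMIs, beside 12.8% of 493 genes elsewhere on chromosome 4. Without the members it was 2 of 19, or 10.5%, close to the 11.1% of all genes past 0.5 log2 either way. These 2 were Isg15, a ubiquitin-like protein induced by interferon, and 5830444B04Rik. Isg15 went from 399.7 CPM (390.1 to 409.5) for WT to 577 CPM (567 to 588) for APP/PS1, a log2 ratio of 0.53 (0.49 to 0.57). In the Il1b-led group its log2 ratio was 0.38 (0.29 to 0.47). It was 0.23 (0.13 to 0.32) in the Cstdc4-led and 0.22 (0.16 to 0.28) in the Ifit3-led group. Neutrophils with platelet transcripts were at 0.55 (0.46 to 0.65), and the Camp-led group is given below. The libraries held the groups in different numbers, so the mix of groups enters the value over all neutrophils. The part of this mix was not tested. 5830444B04Rik had 29 and 58 UMIs and lay 813.2 kb away. Isg15 starts 34.0 kb from Plekhn1, between Agrn and AW011738. Plekhn1, AW011738 and Agrn, also higher in APP/PS1 neutrophils, were chosen by position and by this difference. Their closeness was set by that choice, so nothing is read from it, and a change shared by the region was not tested. Perm1, which starts 19.0 kb from Plekhn1 between it and AW011738, had 32 UMIs in WT and 43 in APP/PS1 and no detectable difference (log2 ratio 0.11, -0.59 to 0.81). Noc2l, on the other side of Plekhn1, had the opposite direction.

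Isg15 did not run with its neighbours in every cell type. It was lower in APP/PS1 erythroid cells, going from 239 CPM (217 to 261) to 195 CPM (169 to 225), and in the Camp-led neutrophils, with 125 CPM (97.6 to 157) and 79.7 CPM (64.4 to 97.5). In basophils it was at 92.0 CPM (63.7 to 129) and 280.5 CPM (215 to 360). Of 8 other interferon-induced genes with enough UMIs in neutrophils, 4 were higher past 0.5 log2 (Ifit2, Ifit3, Rsad2 and Usp18), 4 lay within and none was lower, beside 6.7% of all genes higher. Ifit3 was at 111 and 193 CPM, a log2 ratio of 0.79 (0.71 to 0.88), and Rsad2 at 454 and 669 CPM, a log2 ratio of 0.56 (0.52 to 0.60).

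The immune receptors Tnfrsf18 (GITR) and Tnfrsf4 (OX40) are also neighbours. Tnfrsf18, 209 kb from Plekhn1, had a log2 ratio of 0.34 (0.02 to 0.66) in neutrophils, with 8.41 and 10.6 CPM. In NK cells, where its level was highest, it was at 60.5 CPM (49.3 to 73.6) and 63.5 CPM (54.6 to 73.4). Tnfrsf4 had 28 and 42 UMIs in neutrophils, with an interval that held no difference (log2 ratio 0.26, -0.46 to 1.01). In monocytes 30 of the 56 neighbours had enough UMIs, of which 3 were higher past 0.5 log2 (AW011738, Agrn and 5830444B04Rik).

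**Figure D4:**
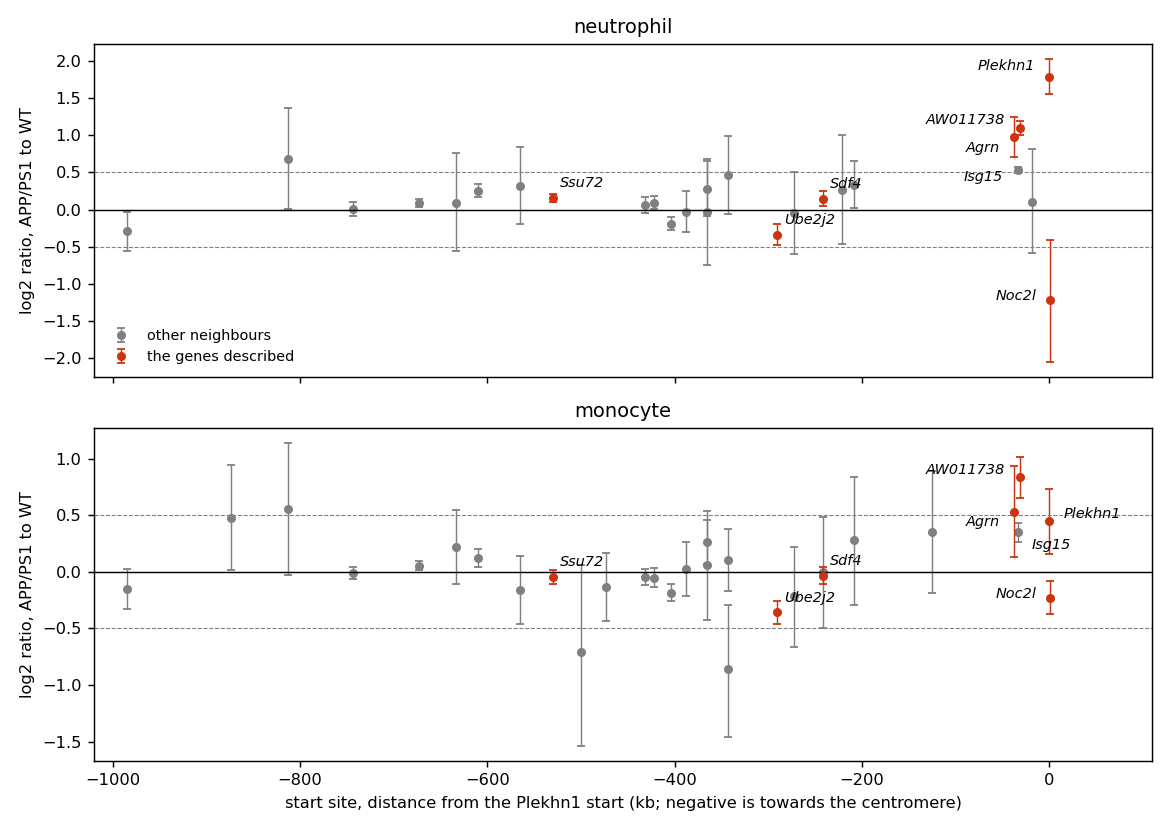
Log2 ratio of CPM, APP/PS1 to WT, against the distance of each gene's start from that of Plekhn1 in kb, for neighbours within 1 Mb with at least 50 UMIs in neutrophils (top) and monocytes (bottom), with 95% exact intervals and dashed lines at 0.5 and -0.5. In neutrophils Agrn, Isg15, AW011738 and Plekhn1 lie above 0.5 within 37.4 kb, and Noc2l lies at -1.21. Agrn, AW011738 and Plekhn1 were chosen by position and by such differences.

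Genes of related function outside the region were described for comparison. For the lists below, 6.7% of all 8860 genes were higher and 4.39% lower past 0.5 log2 in neutrophils. Nothing is read from such small counts. Of 16 genes of the PLEKH family with enough UMIs in neutrophils, 2 were higher past 0.5 log2 (Plekhn1 and Plekhs1). In the same family 1 was lower (Plekho1), and the median was 0.09. Plekhn1 was itself chosen with its ratio known. Plekho2, the family member with the most UMIs, went from 166 to 186 CPM, a log2 ratio of 0.16 (0.09 to 0.23). None of 10 genes of endoplasmic reticulum protein degradation beside Ube2j2 passed 0.5 log2. Derl1 and Derl2, which help move misfolded proteins out of that compartment, had log2 ratios of 0.14 (0.05 to 0.24) and 0.27 (0.07 to 0.46). Of 9 ribosome assembly genes beside Noc2l, Nop58 was higher and Rrp1b was lower, the latter with 12.2 and 5.95 CPM, a log2 ratio of -1.03 (-1.37 to -0.70), while its relative Rrp1 was at 23.0 and 23.4 CPM. None of 10 polymerase II tail and 3′ end genes beside Ssu72 passed 0.5 log2. Among them Pcf11 had a log2 ratio of 0.00 (-0.08 to 0.08) and Sympk of 0.26 (-0.03 to 0.54). None of 10 cullin 3 genes beside Klhl17 passed either, with Klhl2 at -0.37 (-0.45 to -0.28) and Klhl24 at 0.13 (0.06 to 0.21).

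The genes whose levels were most like those of Plekhn1 over the 16 points (8 cell types in 2 libraries) were found among 10526 genes with at least 200 UMIs, on log2(CPM + 1). For Plekhn1 they were Gk5 (r = 0.89), Pradc1 (0.88), Gpkow (0.86), Icosl (0.86) and Il16 (0.85). None of these lies on chromosome 4, and in neutrophils their log2 ratios were from 0.03 for Gpkow to 0.86 for Gk5. Agrn had r = 0.83 with Plekhn1, Ssu72 0.75 and AW011738 0.37. For AW011738 the closest were Gm28809 (0.95), Pip5k1b (0.94), Taf7 (0.93), Ier2 (0.93) and Igf1r (0.93). The 8 points of a library share its free RNA and its preparation, and the points of small cell types rest on few UMIs.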

How the data were processed

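Single-cell RNA-seq was made from enriched blood neutrophils with the 10x Genomics 3′ v3 chemistry, 1 library of WT and 1 of APP/PS1 mice. Raw counts of UMIs by gene and barcode were deposited by the authors, who had run Cell Ranger 5.0.0 with the mm10 reference of 10x Genomics and had not normalized them. Within each library, cells below percentile 5 or above percentile 95 in detected genes or UMIs were removed, likewise cells whose mitochondrial share exceeded 10% and genes seen in under 3 cells. Kept cells were log-normalized to 10000 UMIs and clustered in Seurat 5.3.0 (R 4.3.3) on 15 principal components of 1996 variable genes, with genes within 2 Mb of Plekhn1 left out, at a resolution of 0.2 (0.5 for neutrophil groups). Clusters were named by marker lists, through a rule set after the clusters were seen. Clusters with all neutrophil and platelet markers were kept apart, and groups with markers of several classes stayed unnamed.

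UMIs were summed per library and cell type and divided by the sum of all UMIs there (CPM). Levels have exact Poisson intervals and ratios exact conditional intervals (Clopper-Pearson, scipy 1.17.1), at the 95% level. On simulated neutrophil counts, 95.4% of intervals over 8660 genes with no change held the true ratio, as did 95.5% over 986 genes set to a ratio of 2. This coverage concerns counting error and not differences between mice or preparations. Genes with at least 50 UMIs over both libraries were counted past 0.5 log2. Doublets were called by Scrublet (scanpy 1.11.5, expected rate 8%). Its own threshold called 0 cells in the APP/PS1 library, so that of WT (0.2167) was used for both, which called 1548 WT and 1286 APP/PS1 cells. They stayed in except in an alternative.

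GENCODE M21 coordinates matched 32158 of 32285 gene IDs, and promoters are from RefSeq, where Klhl17 has its own entry. The 8 genes, the gene lists and the markers were chosen with earlier results of these data known. The genes named are the members, the neighbours within 1 Mb past 0.5 log2 in neutrophils, and Isg15, Tnfrsf4 and Tnfrsf18. The 5 genes most like Plekhn1 and AW011738 are named too. From each other list the gene with the most UMIs and that with the largest absolute log2 ratio in neutrophils are named. Perm1, Plekhs1, Plekho1, Nop58, Ifit2 and Usp18 were named after their values were seen. The other neighbours are given as counts and in the plot, and a few results are not reported here. The alternatives were other filters, doublet removal, other library sizes (edgeR 4.0.16, TMM), a resolution of 0.5, typing per cell, the mean over cells, thinning and the removal of cells with platelet or haemoglobin UMIs.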

Additional observations from a re-analysis of the deposited data

Results flagged for a closer look

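Cells outside the filter of the study entered the report only through the alternative with the mitochondrial limit alone. They held these genes at different levels too. Over all such cells Plekhn1 was at 8.56 CPM (7.51 to 9.72) in the WT library and 26.5 CPM (24.5 to 28.7) in the APP/PS1 library, a log2 ratio of 1.63 (1.42 to 1.85). AW011738 was at 39.1 CPM (36.8 to 41.5) and 96.7 CPM (92.8 to 101), a log2 ratio of 1.30 (1.20 to 1.41). Agrn was at 4.51 CPM (3.76 to 5.38) and 13.6 CPM (12.2 to 15.2), a log2 ratio of 1.59 (1.29 to 1.90), and Ssu72 at 171 and 198 CPM, a log2 ratio of 0.22 (0.16 to 0.28). Of the other members, Ube2j2 was lower, with a log2 ratio of -0.43 (-0.54 to -0.32), and so was Noc2l, with -0.33 (-0.52 to -0.13), while Sdf4 was at 0.03 (-0.05 to 0.11). These cells were picked out because they lie outside the main comparisons and the first 4 of these genes stood above the WT level. They were not sorted by cell type, so the mix of types in each library enters these values, and the differences were not tested. 

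Isg15, between Agrn and AW011738, had opposite directions in different cells: its log2 ratio was -0.29 (-0.54 to -0.04) in erythroid cells and -0.65 (-1.11 to -0.18) in the Camp-led neutrophils, beside 0.53 over all neutrophils, 0.35 (0.26 to 0.43) in monocytes and 1.61 (0.98 to 2.26) in basophils. This difference between cell types was not tested. Of the 7 counted members, 0 had intervals on opposite sides of no difference in any pair of cell types.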

How the results depend on the processing

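With 1 library per genotype no library could be left out, and intervals cover counting error only, not differences between mice or preparations. No paired analysis was possible because each genotype had 1 library. Of 148 recomputed log2 ratios (20 ratios under 8 alternatives, where the cell type had at least 50 cells and the gene at least 1 UMI in each library), 134 stayed within the interval of the value given, 14 moved beyond it and none with an interval apart from 0 changed sign. The Plekhn1 log2 ratio in neutrophils ranged from 1.74 to 2.28 and that of AW011738 from 0.83 to 1.25 over all alternatives, and that of Agrn from 0.71 to 1.16. Agrn in monocytes ranged from 0.25 to 0.58 and AW011738 in NK cells from 0.57 to 1.20. Under the mitochondrial limit alone Plekhn1 in monocytes was at 0.079. With each cell typed by its marker means it was at 0.13 in monocytes, AW011738 was at 1.25 and Ssu72 at 0.23 in neutrophils, and the median over all neutrophil genes went from 0.06 to -0.10. Removing cells with a platelet or haemoglobin UMI left 251 WT and 799 APP/PS1 neutrophils and 69 and 220 monocytes. In those neutrophils Plekhn1 was at 2.28, AW011738 at 0.83, Sdf4 at 0.0085, Ube2j2 at -0.0047 and Ssu72 at 0.032, and in those monocytes Plekhn1 was at 0.0037 (5 UMIs), Noc2l at -0.72, Sdf4 at -0.13, Ube2j2 at -0.19 and Ssu72 at 0.028. This alternative kept far fewer cells and a different share of each library's neutrophils, 251 of 5750 and 799 of 6784. No intervals were computed for it, and the cause of the shifts was not tested. The count of members past 0.5 log2 stayed within 1.5 times under each alternative. Of 26 neighbours with enough UMIs, 6 were past 0.5 log2, and 3 of the 26 at a limit of 1 log2. With a minimum of 1 UMI it was 18 of 46, where the added genes had fewer than 50 UMIs. Nothing is read from these counts. Thinning to 1000 UMIs lowered the share of neutrophils with a Plekhn1 UMI to 1.27% in WT and 3.54% in APP/PS1.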
